A study of Mus musculus with 17 samples.

Results

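The 10 genes described here are members of the bone morphogenetic protein (BMP) pathway and its ID target genes: the ligand Bmp4, the extracellular modulator Twsg1, the pseudoreceptor Bambi, the signalling SMADs Smad1 and Smad5, the inhibitory Smad6, and Id1, Id2, Id3 and Id4. They were chosen by symbol, and all 10 were found among the 25899 symbols of the deposited count table. All 10 passed the filter on low counts, which kept 14907 genes.

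The 17 libraries hold newly made RNA of mouse embryonic stem cells, line E14tg2a on a 129SV background. Every group shared the same genotype: a knockout of Erk1 and Erk2, a cDNA for FLAG-ERK2 Q103A (an ERK2 whose changed pocket lets PP1 block it), and a cRAF-ErT2 cassette (a RAF kinase switched on by 4-hydroxytamoxifen, 4OHT). Every group had been grown in serum, LIF and 2 µM Chir99021, a GSK3 inhibitor, and was then kept for 24 h in the FGF receptor inhibitor PD173074 at 250 nM, again with serum and LIF. The groups were 4OHT (250 nM for 2 h), a MEK inhibitor (MEKi, 1 µM) with the same 4OHT, PP1 (2 µM) with the same 4OHT, MEKi alone, PP1 alone, and cells labelled as DMSO and left untreated. The inhibitor-only exposure time is not clearly stated. If it differed from the time on the inhibitor with 4OHT, the 2 cannot be told apart in the effects of 4OHT with an inhibitor. Cells took up 5 mM ethynyl uridine for the last 15 minutes, and the RNA that carried it was captured, so the values follow recent synthesis more than stored mRNA. Replicates were clones a, b and c of 1 engineered line (n = 3), except that the DMSO group held clones b and c only (n = 2). The tests therefore measure the spread between clones of 1 line. The effects of 4OHT with an inhibitor each have their own inhibitor-only control, while 4OHT, MEKi alone and PP1 alone are set against the same 2 DMSO libraries. The DMSO cells stand at 0 h and were left untreated. Any effect of vehicle or of the 2 h itself therefore cannot be told apart from that of 4OHT in 4OHT against DMSO.

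BMP ligands such as BMP4 bind type I and type II receptor kinases, which phosphorylate SMAD1 and SMAD5. These enter the nucleus with SMAD4 and switch on target genes, among them the Id genes and the inhibitory Smad6. ID proteins are helix-loop-helix proteins without a DNA-binding region that hold E proteins away from DNA. In mouse embryonic stem cells, BMP present in serum acts with LIF to keep the cells undifferentiated, in part through Id genes, and ERK signalling works the other way. ERK can also phosphorylate the linker of SMAD1.

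Start regions of 4 members are shown because their new RNA moved furthest after 4OHT among members with bases to show upstream of the annotated gene: Bmp4 and Twsg1, which rose, and Id4 and Smad6, which fell. They come from RefSeq (GRCm38.p6) and lie upstream of both the RefSeq start and the GENCODE gene, at chr14:46390670-46390919 (minus strand) for Bmp4, chr17:65951227-65951437 (minus strand) for Twsg1, chr13:48260866-48261115 (plus strand) for Id4 and chr9:64022060-64022309 (minus strand) for Smad6. Each is written 5′ to 3′ on the strand of the gene. Capitals mark matches on either strand to motifs linked to SMAD1/5 (GGCGCC), SMADs (CAGAC), ETS (CCGGAAG), EGR (GCGTGGG), AP-1 (TGANTCA) and CRE (TGACGTC).
Bmp4: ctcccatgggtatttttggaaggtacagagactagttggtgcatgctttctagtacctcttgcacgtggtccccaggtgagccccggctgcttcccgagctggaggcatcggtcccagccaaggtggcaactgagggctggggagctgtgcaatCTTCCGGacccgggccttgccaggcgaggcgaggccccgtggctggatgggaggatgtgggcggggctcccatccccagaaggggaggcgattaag
Twsg1: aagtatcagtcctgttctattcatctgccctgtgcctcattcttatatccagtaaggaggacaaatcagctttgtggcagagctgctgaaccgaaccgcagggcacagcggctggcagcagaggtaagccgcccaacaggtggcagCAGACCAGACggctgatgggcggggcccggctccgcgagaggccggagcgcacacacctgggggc
Id4: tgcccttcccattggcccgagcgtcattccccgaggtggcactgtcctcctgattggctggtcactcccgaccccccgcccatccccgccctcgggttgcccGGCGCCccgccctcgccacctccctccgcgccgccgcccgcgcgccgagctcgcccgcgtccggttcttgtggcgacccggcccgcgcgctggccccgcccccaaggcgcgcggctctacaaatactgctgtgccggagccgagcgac
Smad6: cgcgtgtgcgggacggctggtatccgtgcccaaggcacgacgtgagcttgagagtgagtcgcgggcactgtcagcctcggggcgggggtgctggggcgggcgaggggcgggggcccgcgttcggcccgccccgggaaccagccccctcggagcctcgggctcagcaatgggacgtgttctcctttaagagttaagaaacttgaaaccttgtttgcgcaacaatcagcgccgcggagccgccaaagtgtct
In the full windows, from 250 bases before to 50 after the RefSeq start, Bmp4 held 1 ETS match at position -96, Twsg1 held 2 CAGAC matches at -104 and -99, Id4 held 1 GGCGCC match at -148, and Smad6 held none of these motifs. Windows were found for 8 of the 10 members. Id2 held GGCGCC at -231, and Id3 held CAGAC at -167 and -68. Smad5, which has 3 RefSeq starts and no called change after 4OHT, held 1 GGCGCC match, at 24 from the first and -19 from the second, and CAGAC at -21 from the third. Among 32851 windows of this length, 11.9% held GGCGCC, 49.6% CAGAC, 8.86% the ETS letters, 5.04% those of EGR, 7.81% those of AP-1 and 3.21% those of CRE. Matches to EGR, AP-1 and CRE were found in none of the 8 members' windows, and no capitals of different motifs overlap. A match to the E-box CANNTG, the kind of site E proteins bind, was found in 72.3% of all windows. Bmp4 and Twsg1 held 3 each, Id2 held 1 at -196 and Smad6 held 1 at 8. Smad5 held 1, at -109 from its first start and -151 from its second, and Id3, Id4 and Smad1 held none.

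Library totals ran from 5239690 to 11093390 counts, so 3 counts were worth 0.247 to 0.766 CPM. Levels are given as CPM, counts divided by the TMM-scaled library total, and because CPM is not corrected for gene length, levels are compared between groups and not between genes. In these bulk libraries, fewer cells with a transcript and less new RNA per cell cannot be told apart. Summed embryonic stem cell markers stood at 3499 to 4001 CPM in 4OHT libraries and at 4018 to 5174 CPM in the other groups, and none of the 12 was at 0. Summed primitive endoderm markers were at 113 to 134 CPM in 4OHT libraries and 203 to 344 CPM elsewhere. Most of this sum was Lama1 in every library, and no other marker on that list passed 9.34 CPM. The lower sum therefore mostly reflects Lama1 and does not show a fall of the list as a set. Trophoblast markers summed to 31.3 to 40.4 CPM in 4OHT libraries against 17.1 to 23.5 CPM elsewhere, and neuroectoderm markers to 26.3 to 35.3 CPM against 9.70 to 22.7 CPM, with Neurod1 at 0 throughout. Nes reached 27.7 CPM in a 4OHT library, where it made up most of the neuroectoderm sum. The higher sum therefore does not show a rise of that list as a set. Mesoderm markers summed to 17.8 to 21.5 CPM in 4OHT libraries against 9.51 to 19.2 CPM elsewhere, with Foxc2 at 0 throughout, and fibroblast markers to 0.98 to 5.05 CPM over all libraries. The part of these shifts in the results below was not tested.

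Across the members, 2 h of 4OHT without inhibitor raised Id1, Twsg1, Bmp4 and Id3 and lowered Smad6, Id4, Bambi, Id2 and, by less, Smad1. Of the 10 members, 9 were called (4 up, 5 down), where 52% of all genes tested were called in the same comparison (25.7% up, 26.3% down). With MEKi present, 4OHT lowered Id3, Bmp4, Id4, Smad6 and Bambi and raised Twsg1 slightly, so 6 members were called (1 up, 5 down) against 14.7% of all genes (7.65% up, 7.03% down). With PP1 present, 4OHT raised Bmp4, Id1, Id3 and Twsg1 and lowered Id2, Smad6 and Bambi, so 7 members were called (4 up, 3 down) against 31.3% of all genes (18.4% up, 12.8% down). A gene is called at an adjusted p under 0.05 in edgeR's quasi-likelihood test with Benjamini-Hochberg adjustment over all 14907 genes, and the adjusted p-values below are from this test. The median size of the log2 fold change without inhibitor was 1.29 over the members and 0.48 over all genes. Members were chosen with earlier results of these data known, so these contrasts with all genes describe the set and do not test it. Scaling by library totals alone in place of TMM moved the median change over all genes to -0.32 without inhibitor, against -0.02 with TMM, and the share of calls that were up to 21.1%, against 49.4%. No called change of a member turned its sign under this or any of the other alternatives.

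**Figure D1:**
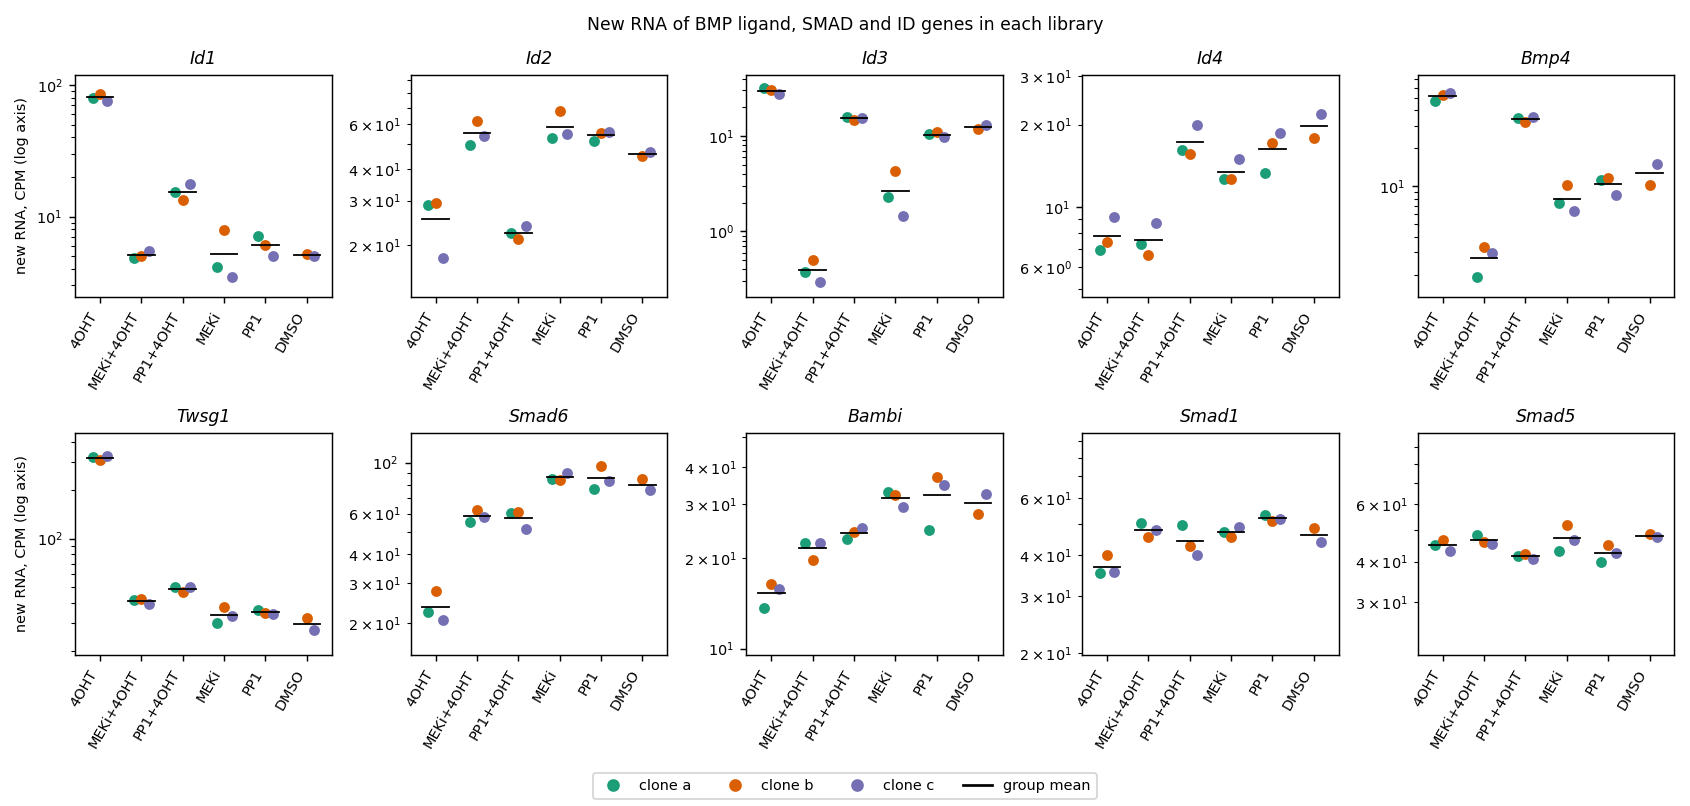
New RNA of each member in every library (CPM, log axis), by group, with 1 point per clone and a line at the group mean. Id1 and Twsg1 stand apart in the 4OHT group, Bmp4 is high in the 4OHT and the PP1 with 4OHT groups, and Id3 falls to 0.29 to 0.50 CPM in the MEKi with 4OHT group, the lowest of all groups.

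Bmp4, the ligand, was raised by 4OHT without inhibitor and with PP1, and was lower with MEKi and 4OHT than with MEKi alone. Bmp4 stood at 47.0, 52.9 and 54.7 CPM in 4OHT clones a, b and c, against 10.3 and 15.0 CPM in DMSO clones b and c. With MEKi and 4OHT it stood at 1.90, 3.29 and 2.94 CPM in clones a, b and c, against 7.32, 10.1 and 6.40 CPM with MEKi alone. With PP1 and 4OHT the values were 34.8, 32.3 and 35.2 CPM, against 11.2, 11.5 and 8.58 CPM with PP1 alone. In none of the 3 pairs did the groups overlap: Bmp4 was high in both the 4OHT and the PP1 with 4OHT libraries and lowest of all in those with MEKi and 4OHT. The log2 fold changes were 2.03 ± 0.18 without inhibitor (SE, a 4.08-fold rise, adjusted p = 1.3e-09), -1.52 ± 0.23 with MEKi (2.86-fold lower, adjusted p = 6.4e-05) and 1.71 ± 0.17 with PP1 (a 3.27-fold rise, adjusted p = 8.8e-08). The change with MEKi differed from that without inhibitor by -3.55 ± 0.29 on the log2 scale (adjusted p = 8.6e-10). For PP1 this difference was -0.32 ± 0.24 (adjusted p = 0.36, 95% interval -0.85 to 0.22), and it was 0.09 when libraries were scaled by their totals alone. Without DMSO clone b it was -0.12 (adjusted p = 0.79) and without DMSO clone c -0.68 (adjusted p = 0.087). Bmp4 (chr14:46383520-46390669, minus strand, GRCm38) overlaps Gm15217 and Gm15222 on the other strand. Gm15217 had 3 to 58 counts per library, and since the strand setting is not given in the sources used here, reads of the overlap cannot be told apart.

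Twsg1 encodes twisted gastrulation, a secreted protein that binds BMPs together with chordin and can either block or release them. It showed the rise with the least spread of all members: 320, 310 and 326 CPM in 4OHT clones a, b and c, against 32.1 and 26.9 CPM in DMSO clones b and c. With MEKi and 4OHT the clones stood at 41.7, 42.1 and 39.0 CPM, against 29.9, 37.5 and 33.1 CPM with MEKi alone. With PP1 and 4OHT they stood at 49.9, 46.3 and 50.2 CPM, against 36.2, 34.2 and 33.8 CPM with PP1 alone. All 3 pairs of groups were separate, and both inhibitor groups with 4OHT lay far nearer to the unstimulated groups than to 4OHT alone. On the log2 scale the changes were 3.43 ± 0.10 without inhibitor (SE, a 10.8-fold rise, adjusted p = 1.1e-17), 0.30 ± 0.09 with MEKi (adjusted p = 0.027) and 0.49 ± 0.09 with PP1 (adjusted p = 0.00022). The rise with MEKi is not firm: it missed the threshold in 8 of 28 alternatives, among them without MEKi with 4OHT clone a (0.27, adjusted p = 0.096) or clone b (0.25, adjusted p = 0.11) and without MEKi clone a (0.22, adjusted p = 0.15) or clone c (0.26, adjusted p = 0.11). The effect of 4OHT on Twsg1 differed by -3.13 ± 0.13 with MEKi (adjusted p = 1.4e-14) and by -2.94 ± 0.13 with PP1 (adjusted p = 5.0e-13) from that without inhibitor. The effect with PP1 exceeded that with MEKi by 0.20 ± 0.13 (adjusted p = 0.37, 95% interval -0.08 to 0.48). Twsg1 lies at chr17:65921972-65951226 on the minus strand.

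Bambi encodes a transmembrane protein like a type I receptor without the kinase, which dampens BMP and related signals. It fell with 4OHT in all 3 settings. Bambi stood at 13.6, 16.4 and 15.7 CPM in 4OHT clones a, b and c, against 28.0 and 32.6 CPM in DMSO clones b and c. The means were 21.5 ± 1.57 CPM with MEKi and 4OHT against 31.6 ± 1.86 CPM with MEKi alone, and 24.2 ± 0.984 CPM with PP1 and 4OHT against 32.2 ± 6.54 CPM with PP1 alone (SD, n = 3 each). The groups of the first 2 pairs were separate, and PP1 clone a (24.8 CPM), the library of lowest depth, lay among the PP1 with 4OHT clones. As log2 fold changes these were -1.0 ± 0.14 without inhibitor (SE, adjusted p = 2.5e-06), -0.55 ± 0.13 with MEKi (adjusted p = 0.0039) and -0.45 ± 0.13 with PP1 (adjusted p = 0.0089). Without PP1 clone b the last was -0.34 (adjusted p = 0.082), and without MEKi clone a and MEKi with 4OHT clone b the second was -0.46 (adjusted p = 0.077). Both values also missed the threshold when libraries were scaled by their totals alone (-0.34, adjusted p = 0.21, with PP1 and -0.39, adjusted p = 0.21, with MEKi).

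Smad1 and Smad5 carry the BMP signal to the nucleus, and without inhibitor their changes were the smallest of the 10 members. Smad1 averaged 36.9 ± 2.66 CPM in 4OHT libraries (SD, n = 3) and 46.3 ± 3.34 CPM in DMSO libraries (SD, n = 2), a log2 fold change of -0.33 ± 0.10 (SE, adjusted p = 0.0091). The 4OHT clones stood at 35.3, 40.0 and 35.5 CPM and the DMSO clones at 48.6 and 43.9 CPM, and without DMSO clone b the change was -0.23 (adjusted p = 0.17). With MEKi, Smad1 was at 48.0 ± 2.36 CPM with 4OHT and 47.2 ± 1.69 CPM without it, and with PP1 at 44.1 ± 5.04 CPM with 4OHT and 52.1 ± 1.16 CPM without it (SD, n = 3 each). The log2 fold change with PP1 was -0.23 ± 0.09 (adjusted p = 0.060), and it passed the threshold in 18 of 28 alternatives, among them the fit with clone as a replicate block (-0.24, adjusted p = 0.041). Smad5 kept between 39.8 and 51.7 CPM in all 17 libraries. Its changes with 4OHT were -0.10 ± 0.09 without inhibitor (adjusted p = 0.40, 95% interval -0.31 to 0.11), -0.01 with MEKi (95% interval -0.20 to 0.17) and -0.04 with PP1 (95% interval -0.23 to 0.15). Another scaling used library totals without 14 loci of very high count whose library shares followed that of Cdk8. With it the change without inhibitor was -0.35 (adjusted p = 0.0026), past the threshold and outside its 95% interval above. Neighbouring groups overlapped along the whole order of Smad5 levels.

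Smad6, an inhibitory SMAD that blocks receptor-activated SMADs and is itself a BMP target, fell with 4OHT in every setting and most without inhibitor. Smad6 stood at 22.3, 27.7 and 20.7 CPM in 4OHT clones a, b and c, against 84.7 and 75.9 CPM in DMSO clones b and c. In the MEKi with 4OHT clones it stood at 55.1, 62.4 and 58.1 CPM, against 84.7, 84.2 and 90.1 CPM with MEKi alone. In the PP1 with 4OHT clones it stood at 60.5, 60.8 and 51.6 CPM, against 77.1, 96.5 and 82.8 CPM with PP1 alone. The 3 unstimulated groups overlapped with each other, the 2 inhibitor groups with 4OHT overlapped below them, and 4OHT alone was lowest. 4OHT thus gave log2 fold changes of -1.78 ± 0.12 without inhibitor (SE, 3.44-fold lower, adjusted p = 9.5e-12), -0.56 ± 0.10 with MEKi (adjusted p = 0.00036) and -0.57 ± 0.10 with PP1 (adjusted p = 0.00015). When libraries were scaled by their totals alone, both inhibitor values missed the threshold (-0.40, adjusted p = 0.16, with MEKi and -0.45, adjusted p = 0.070, with PP1). The fall was smaller by 1.22 ± 0.15 on the log2 scale with MEKi (adjusted p = 9.1e-07) and by 1.21 ± 0.15 with PP1 (adjusted p = 3.4e-06).

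Id1 had the largest rise of the members after 4OHT, no rise past the threshold with MEKi, and a partial one with PP1. Id1 stood at 80.3, 85.8 and 75.8 CPM in 4OHT clones a, b and c, against 5.18 and 5.00 CPM in DMSO clones b and c. Under MEKi with 4OHT it stood at 4.84, 4.99 and 5.49 CPM, against 4.16, 7.85 and 3.49 CPM with MEKi alone. Under PP1 with 4OHT it stood at 15.3, 13.4 and 17.7 CPM, against 7.15, 6.07 and 5.02 CPM with PP1 alone. The 4OHT clones were far above all others, the PP1 with 4OHT clones were second, and the other 4 groups overlapped. The log2 fold changes were 3.98 ± 0.20 without inhibitor (SE, a 15.8-fold rise, adjusted p = 1.0e-13), 0.06 ± 0.22 with MEKi (adjusted p = 0.91, 95% interval -0.43 to 0.55) and 1.38 ± 0.19 with PP1 (a 2.60-fold rise, adjusted p = 1.3e-05). Both inhibitors changed the effect, by -3.92 ± 0.30 for MEKi (adjusted p = 4.3e-10) and by -2.60 ± 0.29 for PP1 (adjusted p = 3.9e-07). The effect with PP1 exceeded that with MEKi by 1.32 ± 0.30 (adjusted p = 0.0039).

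Id3 rose with 4OHT, and with MEKi and 4OHT it was down to a few counts per library. It was already lower with MEKi alone than in DMSO libraries, and a longer time on MEKi cannot be told apart from 4OHT here. Id3 stood at 31.5, 30.0 and 27.5 CPM in 4OHT clones a, b and c, against 11.8 and 13.1 CPM in DMSO clones b and c. With MEKi and 4OHT it stood at 0.380, 0.499 and 0.294 CPM, against 2.27, 4.25 and 1.46 CPM with MEKi alone. With PP1 and 4OHT it stood at 15.7, 14.9 and 15.5 CPM, against 10.5, 10.9 and 9.68 CPM with PP1 alone. All 6 groups of Id3 were separate from their neighbours in the order, from 4OHT at the top, through PP1 with 4OHT, DMSO, PP1 and MEKi, to MEKi with 4OHT. The MEKi with 4OHT clones had 3 to 5 counts each and 12 in all, a pooled level of 0.390 CPM with an exact Poisson 95% interval of 0.202 to 0.682 CPM, which covers counting error only. On the log2 scale the changes were 1.25 ± 0.19 without inhibitor (SE, a 2.38-fold rise, adjusted p = 4.6e-06), -2.62 ± 0.39 with MEKi (6.16-fold lower, adjusted p = 6.0e-05) and 0.57 ± 0.18 with PP1 (adjusted p = 0.019). The rise with PP1 missed the threshold in 5 of 28 alternatives, including without PP1 with 4OHT clone a (0.51, adjusted p = 0.079), without PP1 with 4OHT clone b (0.55, adjusted p = 0.064) and without PP1 clone c (0.51, adjusted p = 0.077). The effect of 4OHT differed by -3.88 ± 0.43 with MEKi (adjusted p = 1.4e-07) and by -0.69 ± 0.26 with PP1 (adjusted p = 0.051), and the second passed the threshold in 15 of 28 alternatives, among them the fit with clone as a replicate block (-0.67, adjusted p = 0.042). With library totals it was -0.28 (adjusted p = 0.50).

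Id2 fell with 4OHT without inhibitor and with PP1, and no change passed the threshold with MEKi. Id2 stood at 28.7, 29.3 and 17.8 CPM in 4OHT clones a, b and c, against 45.1 and 46.8 CPM in DMSO clones b and c. In the MEKi with 4OHT clones it stood at 49.8, 62.0 and 54.1 CPM, against 52.9, 67.6 and 55.2 CPM with MEKi alone. In the PP1 with 4OHT clones it stood at 22.4, 21.1 and 23.7 CPM, against 51.8, 55.5 and 56.1 CPM with PP1 alone. The 4OHT and PP1 with 4OHT groups overlapped each other and were separate from all others, with 4OHT clone c the lowest library. As log2 fold changes these were -0.87 ± 0.15 without inhibitor (SE, 1.83-fold lower, adjusted p = 4.0e-05), -0.08 ± 0.13 with MEKi (adjusted p = 0.75, 95% interval -0.36 to 0.21) and -1.29 ± 0.14 with PP1 (2.45-fold lower, adjusted p = 5.5e-07). MEKi changed the effect by 0.79 ± 0.20 (adjusted p = 0.0027). For PP1 the difference was -0.42 ± 0.21 (adjusted p = 0.14), and without 4OHT clone c it was -0.70 (adjusted p = 0.0048).

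Id4 fell with 4OHT without inhibitor and with MEKi, and no change passed the threshold with PP1. Id4 stood at 6.95, 7.41 and 9.14 CPM in 4OHT clones a, b and c, against 17.9 and 21.8 CPM in DMSO clones b and c. Under MEKi with 4OHT it stood at 7.31, 6.69 and 8.72 CPM, against 12.6, 12.6 and 14.9 CPM with MEKi alone. Under PP1 with 4OHT it stood at 16.1, 15.6 and 19.9 CPM, against 13.3, 17.1 and 18.6 CPM with PP1 alone. The first 2 pairs of groups were separate and the PP1 pair overlapped, whereas for Id2 it was the MEKi pair that overlapped. 4OHT thus gave log2 fold changes of -1.33 ± 0.18 without inhibitor (SE, 2.52-fold lower, adjusted p = 1.0e-06), -0.83 ± 0.17 with MEKi (adjusted p = 0.0016) and 0.04 ± 0.16 with PP1 (adjusted p = 0.87, 95% interval -0.31 to 0.38). PP1 changed the effect by 1.37 ± 0.24 (adjusted p = 0.00013), and for MEKi the difference was 0.51 ± 0.25 (adjusted p = 0.11). This MEKi difference was 0.96 (adjusted p = 0.023) with library totals and 0.79 (adjusted p = 0.011) with totals without the high-count loci, and 0.30 (adjusted p = 0.42) without DMSO clone c. Scaled by library totals alone, the fall with MEKi was -0.67 (adjusted p = 0.065). Id4 (chr13:48261228-48266026, plus strand) is overlapped by A330033J07Rik and Gm49291 on the other strand, so its reads cannot be told apart from theirs.

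**Figure D2:**
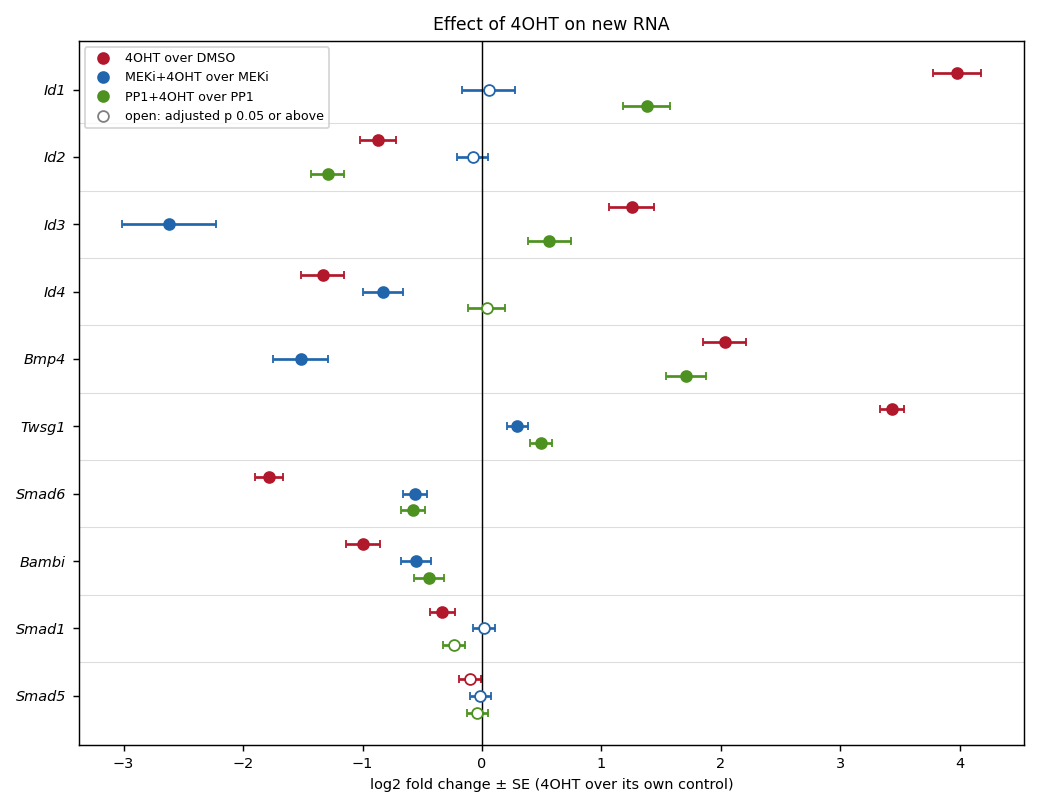
Log2 fold change of each member after 4OHT (points, with SE bars), without inhibitor, with MEKi and with PP1, each over its own control. Open points have an adjusted p of 0.05 or above. Bmp4 and Id3 lie right of 0 without inhibitor and with PP1 and left of 0 with MEKi, while Id2 and Id4 differ in which inhibitor leaves a change past the threshold.

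Without 4OHT the inhibitors moved few members. MEKi alone lowered Id3, which averaged 2.66 ± 1.44 CPM with MEKi (SD, n = 3) and 12.5 ± 0.98 CPM in DMSO libraries (SD, n = 2), a log2 fold change of -2.32 ± 0.24 (SE, adjusted p = 1.9e-06). It was the only member called, where 0.53% of all genes were called, and the other 9 changes ran from -0.70 to 0.34. In all, 4 members had an unadjusted p under 0.05, the others being Bmp4 (-0.70, adjusted p = 0.13), Id4 (-0.55, adjusted p = 0.16) and Id2 (0.34, adjusted p = 0.36). PP1 alone changed no member past the threshold in edgeR's test, where 0.241% of all genes were called: the 10 changes ran from -0.28 to 0.25, 1 member (Twsg1, 0.23) had an unadjusted p under 0.05, and DESeq2 and limma-voom also called 0. PP1 set against MEKi called Id3 alone (0.0738% of all genes), at 10.4 ± 0.641 CPM with PP1 and 2.66 ± 1.44 CPM with MEKi, a log2 fold change of 2.06 ± 0.23 (SE, adjusted p = 2.5e-05). Fitted on those 6 libraries only, the adjusted p was 0.051, with a change of 2.05.

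With 4OHT present, the 4 ID genes, Bmp4 and Twsg1 differed between the inhibitors, and no difference passed the threshold for the SMADs or Bambi. PP1 with 4OHT against MEKi with 4OHT called 6 members (5 up, 1 down), where 28.2% of all genes were called (15.2% up, 13% down). Id3 was higher with PP1 by 5.25 ± 0.29 on the log2 scale (SE, adjusted p = 8.3e-13), though this fold rests on the 12 counts of the MEKi with 4OHT group. Bmp4 was higher by 3.65 ± 0.19 (12.5-fold, adjusted p = 4.6e-13), Id1 by 1.59 ± 0.19 (adjusted p = 4.9e-07) and Id4 by 1.17 ± 0.16 (adjusted p = 6.1e-06), while Id2 fell by 1.31 ± 0.14 (adjusted p = 1.3e-07). Twsg1 was higher by 0.25 ± 0.09 (adjusted p = 0.029), a call lost in 8 of 28 alternatives, among them without any 1 of the MEKi with 4OHT clones and without PP1 with 4OHT clone a or c (0.20 to 0.27, adjusted p = 0.050 to 0.14). The differences of Smad1 (-0.12), Smad5 (-0.16), Smad6 (-0.02) and Bambi (0.17) did not pass the threshold, although those of Smad1 (-0.24, adjusted p = 0.039) and Smad5 (-0.29, adjusted p = 0.011) did with library totals without the high-count loci.

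The differences between the effects of 4OHT were tested as interaction terms. MEKi changed the effect on 7 members (3 up, 4 down), where it did so for 40.4% of all genes (21.1% up, 19.3% down), and PP1 changed it on 5 (3 up, 2 down), where 26.5% of all genes were called (15.1% up, 11.4% down). These are both judged against the same 4OHT and DMSO libraries, so they share that part of their error. The effect with PP1 differed from that with MEKi for 5 members (4 up, 1 down), against 12.3% of all genes (7.41% up, 4.86% down): Bmp4 (3.23 ± 0.28, adjusted p = 1.5e-08), Id3 (3.19 ± 0.43, adjusted p = 1.3e-05), Id1, Id4 (0.87 ± 0.23, adjusted p = 0.013) and Id2 (-1.21 ± 0.19, adjusted p = 9.6e-05), each with its SE. All 4 ID genes and the ligand were among them, and none of the 3 SMADs, Bambi or Twsg1. With library totals without the high-count loci, Smad1 was also past the threshold (-0.38, adjusted p = 0.047), as was Smad5 for MEKi minus no inhibitor (0.37, adjusted p = 0.017). The call on Id4 was lost when libraries were scaled by totals alone (0.81, adjusted p = 0.19). Those of Smad1 with MEKi (0.35 ± 0.14, adjusted p = 0.045) and Bambi with PP1 (0.55 ± 0.19, adjusted p = 0.034) were lost in 18 and 16 of 28 alternatives, most of them fits without 1 library, where Smad1 ran from 0.24 to 0.38 and Bambi from 0.37 to 0.66. For Bambi with MEKi the difference was 0.45 ± 0.19 (adjusted p = 0.064), and it passed the threshold in 5 of 28 alternatives. It was 0.91 (adjusted p = 0.015) with library totals, 0.73 (adjusted p = 0.0029) with totals without the high-count loci and 0.28 (adjusted p = 0.33) without DMSO clone c.

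**Figure D3:**
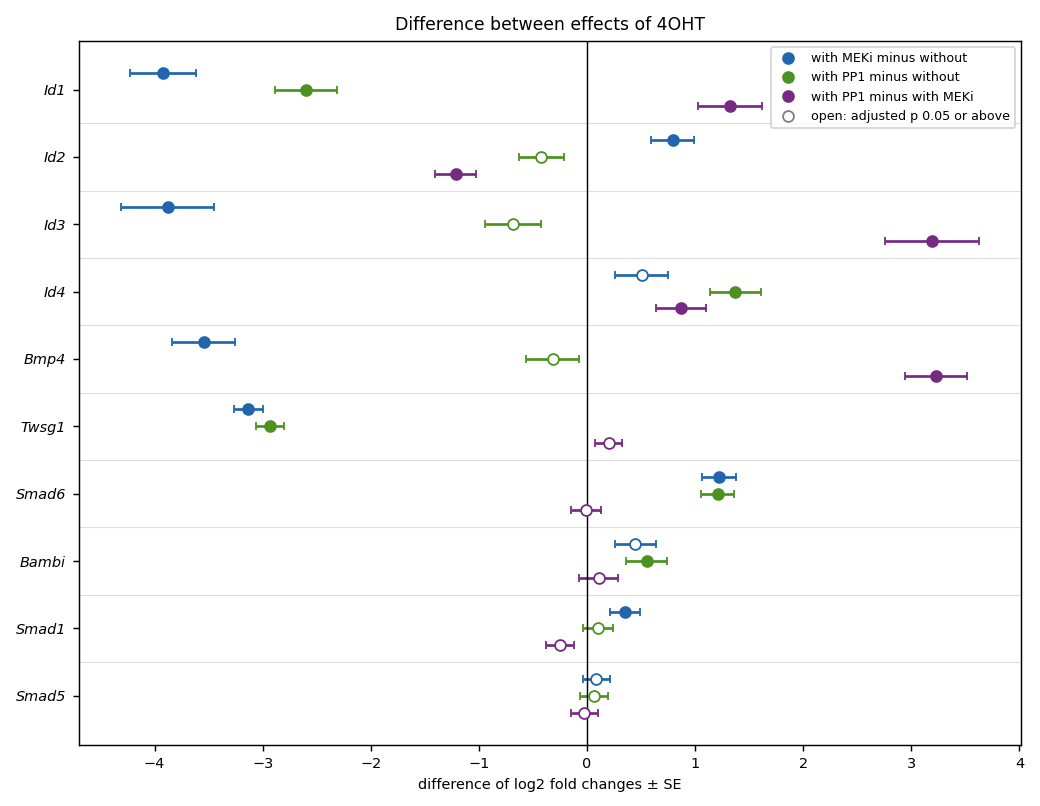
Difference between effects of 4OHT on the log2 scale (points, with SE bars) for each member: with MEKi minus without, with PP1 minus without, and with PP1 minus with MEKi. Open points have an adjusted p of 0.05 or above. Twsg1 and Smad6 have nearly equal values for both inhibitors, while Bmp4 is far from 0 for MEKi (-3.55) and near it for PP1 (-0.32).

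Over the 17 libraries, Pearson's r between members' log2 CPM was 0.96 for Id1 and Twsg1, 0.92 for Id3 and Bmp4, 0.92 for Smad6 and Bambi, and -0.96 for Smad6 and Twsg1. The libraries share clones and groups, so these values describe the data and carry no p. The genes outside the set whose levels were most like each member's, among 12236 genes of at least moderate level, were Hmox1 (0.992) and Cdv3 (0.991) for Id1, Zfp36l1 (0.983) and Zic2 (0.982) for Id3, and Mkrn1 (0.986) and Spry4 (0.986) for Bmp4. For Twsg1, Srxn1 (0.991) was among them. For genes that fell they were Ldlrad3 (0.981) and Uri1 (0.980) for Smad6, Rad1 (0.954) and Fut9 (0.946) for Bambi, Cadps (0.948) and Slc28a1 (0.941) for Id2, and Cpsf4l (0.954) and Nlrp12 (0.953) for Id4. Values were lower for Smad1 (Akna at 0.921, Sbk1 at 0.916) and lowest for Smad5 (Thap2 at 0.737, Spag1 at 0.724).

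Other genes of the pathway were counted list by list, without inhibitor first. Over 6 lists, 30 of 57 entries tested were called (17 up, 13 down), or 52.6%, near the 52% of all genes called in the same comparison. Smad7, Bmp2 and Nog stand on 2 lists each, so an entry is not always a separate gene, and Smad7 was counted on both of its lists. Of 11 other BMP-type ligands tested (16 listed), 3 rose and 3 fell, with a median log2 fold change of -0.12. Bmp1, which in spite of its name encodes a protease that cleaves chordin and procollagens, rose by 2.53 ± 0.27 (adjusted p = 3.1e-08), Bmp7 fell by 1.59 ± 0.25 (adjusted p = 9.5e-06) and Gdf3, a ligand of pluripotent cells, fell by 0.80 ± 0.11 (adjusted p = 8.5e-07). Of 11 extracellular antagonists and modulators tested, 0 rose and 2 fell at the threshold of edgeR's test (1 and 2 at an unadjusted p under 0.05, and 0 and 2 by both DESeq2 and limma-voom), Tll1, a tolloid-like protease, by 2.14 ± 0.16 (adjusted p = 1.4e-10) and Fstl1 by 0.30 ± 0.09 (adjusted p = 0.0090), while the median over the list was 0.40, of the opposite sign. Of 10 receptors and co-receptors, 2 rose and 5 fell (median -0.30), with Rgma, a BMP co-receptor, falling by 2.01 ± 0.28 (adjusted p = 1.1e-05) and Bmpr1b, a type I receptor, by 1.22 ± 0.21 (adjusted p = 2.4e-05). Of 11 other SMADs, ubiquitin ligases and corepressors, 7 rose and 1 fell (median 0.35): Skil, a SMAD corepressor, rose by 2.32 ± 0.08 (adjusted p = 2.3e-16), Smad4, the shared partner of the signalling SMADs, by 0.50 ± 0.08 (adjusted p = 1.7e-05) and Smurf2, a ubiquitin ligase that acts on SMADs and receptors, by 0.55 ± 0.09 (adjusted p = 9.9e-06). Of 11 other BMP-SMAD target genes, 4 rose and 1 fell (median 0.29), the last being Klf2, which fell by 1.07 ± 0.19 (adjusted p = 0.00028). Of the 3 E proteins, Tcf3 rose by 0.45 ± 0.09 (adjusted p = 0.00034) and Tcf4 fell by 0.30 ± 0.09 (adjusted p = 0.0069).

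With MEKi present 8 of the 57 entries were called (14%, against 14.7% of all genes). With PP1 17 entries were (29.8%, against 31.3%), so the share fell as it did over all genes. By edgeR's test 4OHT with MEKi raised 1 and lowered 1 of the ligands, lowered 1 antagonist, raised 2 receptors, raised 1 and lowered 1 of the other SMADs and their partners, and lowered 1 target gene. Smad7 was the lowered gene on both of these last lists. With PP1 it raised 2 and lowered 1 of the ligands, lowered 4 antagonists and modulators, raised 2 and lowered 2 receptors, raised 2 of the other SMADs and their partners, raised 1 and lowered 2 target genes, and lowered 1 E protein. The raised target gene was again Smad7, which also counts among the raised SMADs. Smad7, the other inhibitory SMAD, was raised by 4OHT without inhibitor and with PP1 and lowered with MEKi, as Bmp4 was, while Smad6 fell in all 3 settings. It averaged 921 ± 35.8 CPM in 4OHT libraries (SD, n = 3) and 544 ± 29.5 CPM in DMSO libraries (SD, n = 2), 233 ± 30.2 CPM with MEKi and 4OHT against 404 ± 19.8 CPM with MEKi, and 918 ± 79.2 CPM with PP1 and 4OHT against 500 ± 49.8 CPM with PP1 (SD, n = 3 each). Its log2 fold changes were 0.76 ± 0.10 (SE, adjusted p = 5.7e-07), -0.80 ± 0.09 (adjusted p = 9.3e-07) and 0.87 ± 0.09 (adjusted p = 9.7e-08). Rgma was lowered by 4OHT without inhibitor and with PP1 (-1.30 ± 0.24, adjusted p = 0.00068) and raised with MEKi (0.94 ± 0.21, adjusted p = 0.0061). Bmp7 was raised with MEKi (0.68 ± 0.19, adjusted p = 0.020).

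**Figure D4:**
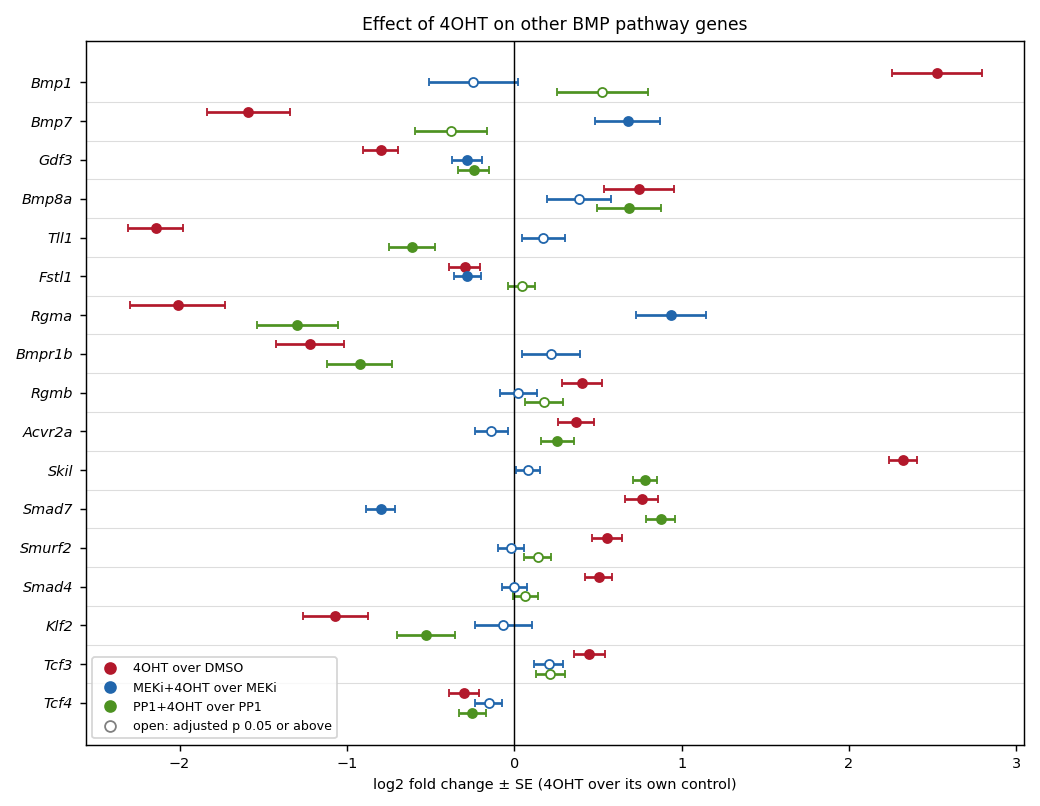
Log2 fold change after 4OHT (points, with SE bars) of the listed BMP pathway genes outside the 10 members, without inhibitor, with MEKi and with PP1. Open points have an adjusted p of 0.05 or above. Skil and Bmp1 lie furthest right without inhibitor, and Smad7 lies right of 0 in 2 settings and left of it with MEKi.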

How the data were processed

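RNA labelled with ethynyl uridine was captured and sequenced in 17 libraries. The authors deposited 1 table of whole-number counts per gene symbol with no normalization. The submitters' processing notes name STAR, featureCounts and the mm10 build. Tool versions, the feature type and the strand setting were not given in the sources used here, so overlapping genes cannot be told apart. Coordinates come from GENCODE release M21 (GRCm38), which held 98.8% of the symbols.

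Counts were fitted in R 4.3.3 with edgeR 4.0.16 (TMM, filterByExpr, robust quasi-likelihood, all 17 libraries, 1 term per group, 11 residual degrees of freedom). Calls needed an adjusted p (Benjamini-Hochberg, 14907 genes) under 0.05. Standard errors are the log2 fold change over the root of F, and 95% intervals use the residual degrees of freedom. The fit was tested on simulated data. Members and lists were chosen with earlier results of these data known. All 10 members are given. Of the other pathway genes up to 4 per list with the greatest change without inhibitor were taken as examples, and the 2 genes most like each member by Pearson's r, of which 1 is not reported here. Clone letters pair libraries of the same clone across groups. Deviations from group means had a mean r of 0.086 between libraries of 1 clone (-0.15 to 0.36) and -0.043 between clones (-0.40 to 0.40). Such deviations cancel within a group, so the second mean largely follows from the first. Alternatives were another scaling, filter, tool (DESeq2 1.42.0, limma-voom 3.58.1), a clone block, only the groups compared, and libraries left out, 28 in all. Depth was 5239690 to 11093390 counts per library. The 14 loci of very high count had a mean of at least 1000 counts. Their share of the library also had to follow that of Cdk8, at a Pearson's r of at least 0.95, so other genes of high count were kept. These 14 loci took 9.38% to 42% of the counts.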

Additional observations from a re-analysis of the deposited data

Results flagged for a closer look

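The effect of 4OHT differed between inhibitor settings by the interaction test for 17 of the member values, on the log2 scale with edgeR's adjusted p. With MEKi minus without, the differences were -3.92 for Id1 (adjusted p = 4.3e-10), -3.88 for Id3 (1.4e-07), -3.55 for Bmp4 (8.6e-10), -3.13 for Twsg1 (1.4e-14), 1.22 for Smad6 (9.1e-07), 0.79 for Id2 (0.0027) and 0.35 for Smad1 (0.045). With PP1 minus without, they were -2.94 for Twsg1 (5.0e-13), -2.60 for Id1 (3.9e-07), 1.37 for Id4 (0.00013), 1.21 for Smad6 (3.4e-06) and 0.55 for Bambi (0.034). With PP1 minus with MEKi, they were 3.23 for Bmp4 (1.5e-08), 3.19 for Id3 (1.3e-05), 1.32 for Id1 (0.0039), -1.21 for Id2 (9.6e-05) and 0.87 for Id4 (0.013). Bmp4 and Id3 are the members called up for 4OHT with PP1 and down for 4OHT with MEKi. If time on an inhibitor differed within these pairs, it cannot be told apart from 4OHT. For Id3, the rise with PP1 missed the threshold in 5 of 28 alternatives, and the fall with MEKi rests on 12 counts in the MEKi with 4OHT group.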

How the results depend on the processing

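Of 100 member results (10 members, 10 comparisons), 47 were called, and 34 of these kept their call in all 28 alternatives. No called value changed its sign. Counts of called members moved by over 1.5 times in 2 cases: with library totals alone as the scaling, 4OHT with MEKi against MEKi called 2 members (Id3 and Bmp4) in place of 6, and with only the groups compared, PP1 against MEKi called 0 in place of 1, Id3 being at an adjusted p of 0.051. Library totals alone put the median log2 fold change over all genes at -0.32 for 4OHT against DMSO, with 21.1% of calls up against 49.4% by TMM, and at 0.17 with MEKi (82.9% up, against 52.1%) and 0.12 with PP1 (76.6% up, against 59.0%); the cause was not tested. Of 2800 recomputed member values, 93 took the other sign, all of them of changes that were not called. For 4OHT with MEKi these were Id1 (-0.00057 with only the groups compared, -0.0038 with clones b and c, -0.034 without MEKi clone a and MEKi with 4OHT clone b, and -0.22 to 0.41 with 1 library left out), Id2 (0.10 with library totals, -0.19 to 0.020 with 1 library left out), Smad1 (-0.0059 with only the groups compared, -0.020 with clones b and c, -0.027 to 0.032 with 1 library left out) and Smad5 (0.16 with library totals, 0.024 with totals without the 14 high-count loci, 0.00034 with no filter, -0.070 to 0.041 with 1 library left out). For 4OHT with PP1 they were Id4 (-0.050 with totals without those loci, -0.013 with only the groups compared, -0.025 with clones b and c, -0.080 to 0.14 with 1 library left out) and Smad5 (0.082 with library totals, -0.094 to 0.0045 with 1 library left out), and for the difference between PP1 and no inhibitor, Bmp4 (0.092 with library totals), Smad1 in 3 fits (-0.019 with clones b and c, -0.065 to 0.16 with 1 library left out) and Smad5 in 8 fits (-0.036 to 0.10 with 1 library left out). For PP1 with 4OHT against MEKi with 4OHT it was Smad6 in 3 fits (0.024 without MEKi clone a and MEKi with 4OHT clone b, -0.072 to 0.052 with 1 library left out), and the other 55 were for the inhibitors without 4OHT and for PP1 minus MEKi. With clone as a replicate block, 2 calls changed, both to past the threshold: Smad1 for 4OHT with PP1 (-0.24, adjusted p = 0.041) and Id3 for the difference between PP1 and no inhibitor (-0.67, adjusted p = 0.042). Depth limits Id3 most, since the MEKi with 4OHT clones had 3 to 5 counts, or 0.294 to 0.499 CPM.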
